A study of Mus musculus with 6 samples.

Results

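The libraries described here hold the progeny of DN2b progenitors, early T-cell progenitors that had already switched on Bcl11b, from mice with and without a distal Bcl11b enhancer. They comprised 8369 of the 60671 cells of the series, 4968 in the WT library and 3401 in the ΔTE library. Cells were all barcodes of both DN2b libraries with at least 200 detected genes, at most 2000 UMIs (unique molecular identifiers, each standing for 1 captured RNA molecule) and at most 30% mitochondrial UMIs. The other 4 libraries of the series started from DN1 or DN2a progenitors.

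WT mice were C57BL/6 Bcl11b YFP/YFP animals and ΔTE mice were Bcl11b YFP-ΔEnh/YFP-ΔEnh animals, which lack the distal enhancer (the timing enhancer) on both copies of Bcl11b. The yellow fluorescent reporter knocked into Bcl11b was thus carried by both genotypes, controls included. Bone marrow progenitors of young adult mice, enriched for CD117 and pooled over several animals, were grown on OP9-DL1 cells, a mouse stromal line that carries the Notch ligand DLL1. DN2b cells were sorted as CD44+CD25+Bcl11b+, so every sorted cell of either genotype expressed the reporter at the start. They were cultured again on OP9-DL1 cells for 4 days before fixation. The paper lists the cytokines IL-2, IL-7, IL-15 and SCF (stem cell factor) as supplements of the cultures for this experiment. The assay was sci-RNA-seq3, a combinatorial method: RNA is first tagged by the well where it is copied to DNA, and later rounds of barcoding separate the cells. The labels name the molecule as nuclear RNA.

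Each genotype gave 1 library from this start, so the difference between genotypes has no replicate check and no p-value is given. Reverse transcription of each library took place in 3 wells, technical splits of 1 culture. Levels are CPM (a gene's UMIs scaled to a common total over genes seen in at least 15 cells of the series), ratios are log2 of ΔTE over WT, and the 95% intervals (exact Poisson or binomial) cover counting error only. Genes with at least 50 UMIs over both libraries were compared, and a gene was called higher or lower when the levels differed at least 1.5-fold.

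The WT cells carried 2732285 UMIs with a median of 455 per cell, and the ΔTE cells 1717136 with a median of 426. The 3 WT wells held 1047, 1555 and 2366 cells, and the 3 ΔTE wells 1283, 1031 and 1087. No cell barcode was shared between libraries. The mitochondrial limit removed 40.9% of otherwise acceptable WT barcodes and 56.6% of ΔTE barcodes. The part of this unequal loss in the differences between genotypes was not tested, and ratios of several genes in the removed barcodes are given with the marker checks.

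Bcl11b encodes a zinc-finger transcription factor that drives commitment to the T lineage and restrains genes of innate lymphoid cells (ILCs) and natural killer (NK) cells. Uncommitted thymic progenitors can still give rise to ILCs and NK cells, whose programmes rest on the transcription factors PLZF (encoded by Zbtb16), Id2 and others. Id2 works by binding E proteins, which T-cell development requires. ILCs and NK cells also use the IL-2 receptor beta chain (Il2rb), signalling adaptors with immunoreceptor tyrosine-based activation motifs (ITAMs) such as Fcer1g and Tyrobp, and granzymes.

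The promoters of 5 genes are shown first: the gene whose enhancer was deleted, and 4 genes with more UMIs per total in ΔTE cells, of which Klrk1 is a description only because it was compared through its ΔTE level. Each run is the 250 bases before the RefSeq transcription start in build GRCm38.p6, written 5′ to 3′ on the gene's strand, which was the minus strand for all 5. Capitals mark matches to 6-letter motifs, searched on both strands. The motifs were TGTGGT for RUNX factors, GGAAGT for ETS factors, AGATAA for GATA factors, CAGCTG for E proteins, CTTTGA for TCF/LEF factors and GGTGTG for T-box factors. The RUNX and T-box letters can overlap each other.
Bcl11b: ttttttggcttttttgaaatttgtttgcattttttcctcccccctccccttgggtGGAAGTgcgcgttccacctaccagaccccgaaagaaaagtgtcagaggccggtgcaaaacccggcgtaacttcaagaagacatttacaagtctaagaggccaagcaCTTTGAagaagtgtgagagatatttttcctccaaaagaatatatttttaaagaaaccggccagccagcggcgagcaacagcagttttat
Id2: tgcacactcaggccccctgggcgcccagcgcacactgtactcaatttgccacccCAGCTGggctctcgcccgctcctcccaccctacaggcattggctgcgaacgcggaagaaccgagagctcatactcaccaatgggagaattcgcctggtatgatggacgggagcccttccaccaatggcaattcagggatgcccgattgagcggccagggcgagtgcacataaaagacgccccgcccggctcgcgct
Fcer1g: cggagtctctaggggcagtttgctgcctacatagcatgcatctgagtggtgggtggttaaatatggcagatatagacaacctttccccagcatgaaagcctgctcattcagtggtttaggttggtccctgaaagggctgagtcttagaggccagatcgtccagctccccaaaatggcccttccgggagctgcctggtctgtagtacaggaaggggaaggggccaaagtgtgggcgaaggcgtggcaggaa
Gzma: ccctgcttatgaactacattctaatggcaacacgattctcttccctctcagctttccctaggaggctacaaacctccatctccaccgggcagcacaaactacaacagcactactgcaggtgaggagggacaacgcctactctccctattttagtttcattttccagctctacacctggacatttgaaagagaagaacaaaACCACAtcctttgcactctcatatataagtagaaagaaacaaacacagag
Klrk1: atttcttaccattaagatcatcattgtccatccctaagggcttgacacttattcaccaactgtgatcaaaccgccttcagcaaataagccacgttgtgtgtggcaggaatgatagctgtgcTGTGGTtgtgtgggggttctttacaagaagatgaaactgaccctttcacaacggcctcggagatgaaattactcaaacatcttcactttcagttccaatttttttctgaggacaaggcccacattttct
The Bcl11b window lay at chr12:108003415-108003664 and held ETS and TCF/LEF matches. The RefSeq starts used here differ from the 5′ ends of the GENCODE gene spans for 3 of the 5 genes, so that 188 bases of the Bcl11b window, 16 of the Fcer1g window and all 250 of the Id2 window lie inside the GENCODE gene. The Id2 window lay at chr12:25096093-25096342 and held an E-protein match. The Fcer1g window at chr1:171234350-171234599 held none of the 6. The Gzma window at chr13:113100982-113101231 and the Klrk1 window at chr6:129623865-129624114 each held a RUNX match, read as its reverse complement for Gzma. RUNX letters occurred in 14.2% of all 27025 promoter windows, in 10.5% of those of the genes compared, in 16.9% of 195 windows of genes called higher with separate wells and in 7.57% of 185 windows of genes called lower. T-box letters occurred in 16.2%, 14.1%, 22.1% and 10.3% of the same sets. E-protein letters occurred in 10.4% of windows of the genes compared, 9.74% of those called higher and 14.1% of those called lower, and TCF/LEF letters in 10.4%, 10.3% and 13.5%. ETS letters occurred in 25.2%, 23.1% and 24.9%, and GATA letters in 5.29%, 6.15% and 5.41%. These shares describe letters, not binding.

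Among 8546 genes compared, 333 were at least 1.5-fold higher in ΔTE cells (3.9%) and 465 were at least 1.5-fold lower (5.44%). With the added condition that the levels of the 3 ΔTE wells and the 3 WT wells did not overlap, 249 genes were higher (2.91%) and 250 were lower (2.93%). The median log2 ratio over all genes compared was −0.02. Higher genes included receptors, adaptors and effectors of NK cells and ILCs, and lower genes included Bcl11b itself and genes of the stromal line. Without the third WT well, the number of lower genes was 303. Of the genes compared, 135 reached 50 UMIs only through a higher level in the ΔTE library and 278 only through a higher level in the WT library (at the lower level in both they would have had fewer than 50), so those genes had to differ; among the other 8133, 252 were higher (3.1%) and 303 lower (3.73%).

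**Figure D1:**
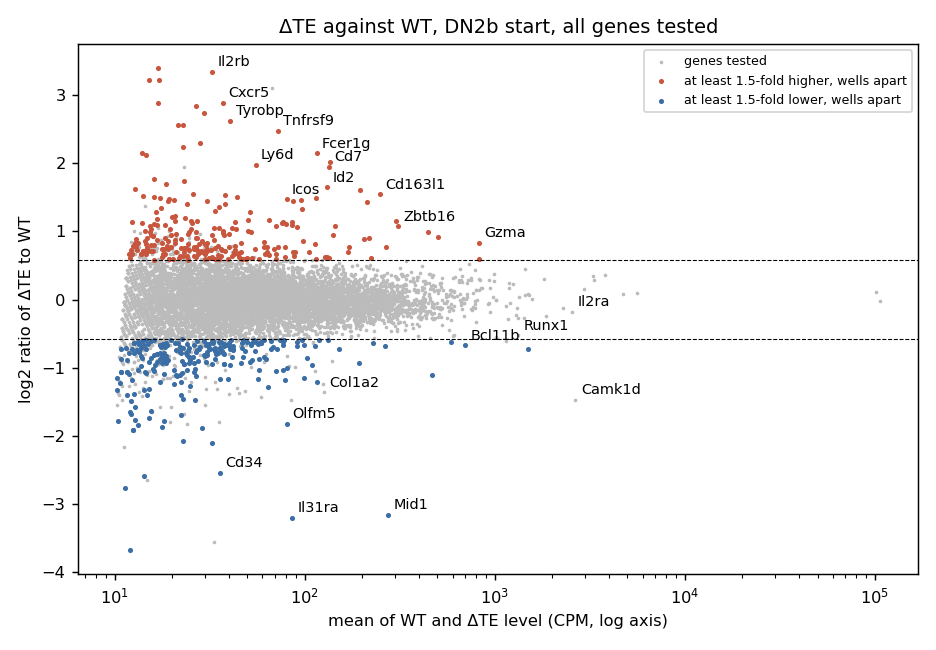
Log2 ratio of ΔTE to WT against the mean level (CPM, log axis) for the 8546 genes compared, 1 point per gene. Coloured points are the 249 genes higher and 250 lower with wells that did not overlap, and dashed lines mark 1.5-fold; Il2rb stands near the top at 3.34 and Mid1 near the bottom at −3.16.

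Bcl11b, on chromosome 12 (GRCm38 107910403 to 108003602, minus strand), was measured at 772, 875 and 880.0 CPM in the WT wells and at 486, 546 and 593 CPM in the ΔTE wells. All 3 ΔTE wells lay below all 3 WT wells. Over each library the level was 856 CPM in WT cells and 539.6 CPM in ΔTE cells, a log2 ratio of −0.67 (95% counting interval −0.78 to −0.56). At least 1 Bcl11b UMI was found in 31.8% of WT cells and 20.02% of ΔTE cells, against 11.6% and 7.41% of cells with OP9-DL1 stromal transcripts, which should lack the gene. With each cell thinned to 300 UMIs, which left out 555 WT and 462 ΔTE cells, the shares over all cells were 21.2% and 13.6%. In barcodes removed by the mitochondrial limit the ratio was −0.47. The deleted element is an enhancer outside the gene, so the count does not check the deletion itself.

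Zbtb16, which encodes PLZF and marks ILC precursors, went the other way. Its level was 190.5, 224 and 188 CPM in the WT wells and 282, 508 and 489 CPM in the ΔTE wells. The lowest ΔTE well was above the highest WT well, and the log2 ratio was 1.07 (0.91 to 1.24), or 2.11-fold. Zbtb16 UMIs were found in 8.09% of WT cells and 14.5% of ΔTE cells, against 2.44% and 7.41% of cells with stromal transcripts. Cells with UMIs of both Bcl11b and Zbtb16 made up 2.78% (2.34% to 3.27%) of WT cells and 2.44% (1.95% to 3.01%) of ΔTE cells, a difference within the counting intervals.

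A list of 14 ILC and NK regulators held transcription factors and the receptor gene Pdcd1, and 8 of them had enough UMIs to be compared. The 4 factors Zbtb16, Id2, Ahr and Maf, and Pdcd1, were at least 1.5-fold higher, all with separate wells, and Zeb2 was lower. Over all genes compared, 3.9% were higher and 5.44% lower, or 2.91% and 2.93% with separate wells. All gene lists used here were chosen with earlier results of these data known. Their counts are therefore a description and not independent support. Pdcd1 is also counted in the costimulatory list below. The median log2 ratio of the 8 was 1.01. Id2, the E-protein antagonist, was at 77.6, 64.4 and 56.7 CPM in WT wells and at 209, 196 and 189 CPM in ΔTE wells. Every ΔTE well was above every WT well, and the ratio was 1.65 (1.38 to 1.92). Id2 UMIs were found in 2.84% of WT cells and 7.73% of ΔTE cells. The shares in cells with stromal transcripts were close to these, at 3.05% (5 of 164) and 7.41% (4 of 54). The Id2 shares are therefore not read as shares of cells expressing the gene. Ahr, a ligand-activated factor of ILCs, had a ratio of 1.12 (0.79 to 1.46), Maf 0.95 (0.71 to 1.20; 0.48 with at most 20% mitochondrial UMIs) and Pdcd1, a receptor that marks ILC precursors, 1.47 (1.16 to 1.78). Rora, a factor of ILC2s, was higher by less than the 1.5-fold threshold, at 0.49 (0.27 to 0.72). Tox, the most abundant of the 8, was also under the threshold, at 0.27. Zeb2, a zinc-finger transcription factor required for terminal NK maturation, was at 136 CPM in WT cells and 61.2 CPM in ΔTE cells (−1.15). Eomes, a T-box factor of NK cells, had 3 UMIs in WT cells and 5 in ΔTE cells, and Zfp683 none in either.

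**Figure D2:**
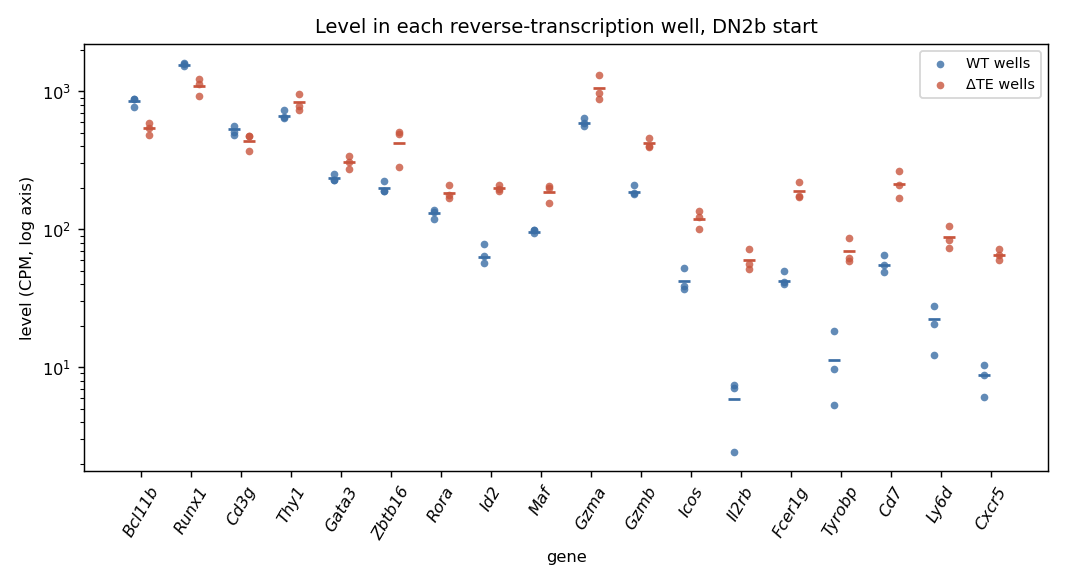
Level of 18 genes (CPM, log axis) in each of the 3 WT wells and 3 ΔTE wells; points are wells and bars are the whole library. ΔTE wells sit below WT wells for Bcl11b and Runx1 and above them for Zbtb16, Id2, Gzma, Il2rb, Fcer1g, Tyrobp and Cxcr5.

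Receptors and adaptors were among the higher genes. Il2rb, the signalling chain shared by the IL-2 and IL-15 receptors, was at 7.05, 2.43 and 7.46 CPM in WT wells and at 56.3, 71.8 and 51.3 CPM in ΔTE wells. The groups of wells were far apart, with 16 UMIs in the WT library and 102 in the ΔTE library, and the ratio was 3.34 (2.57 to 4.20). Il2rg, the common gamma chain, had a ratio of 0.77 (0.60 to 0.94), while Il2ra, which encodes CD25 and was part of the sort, had −0.18 (−0.23 to −0.12). Il18r1 and Il18rap, the chains of the IL-18 receptor, had ratios of 1.74 (1.08 to 2.43) and 1.05, the latter 0.51 without cells carrying ILC and NK markers. Of 24 cytokine receptor and signalling genes, Il2rb, Il18r1 and Socs3 were compared only because of their ΔTE level, and of the other 21 genes 4 were higher and none was lower, beside 3.1% higher and 3.73% lower over all genes that passed without such a gap.

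Fcer1g, an ITAM adaptor of Fc and NK receptors, was at 49.4, 41.3 and 40.3 CPM in WT wells and at 219, 169.9 and 173 CPM in ΔTE wells. The ΔTE wells were again all higher, and the ratio was 2.15 (1.84 to 2.47). Fcer1g UMIs were found in 1.87% of WT cells and 7.79% of ΔTE cells, against 0.610% and 11.1% of cells with stromal transcripts; in the ΔTE library the share in stromal cells, 6 of 54, was no lower than that over all cells. Tyrobp, which encodes the adaptor DAP12, was at 5.29, 18.2 and 9.70 CPM in WT wells and at 86.9, 58.5 and 61.9 CPM in ΔTE wells (2.62). Vav3, a guanine-nucleotide exchange factor downstream of antigen receptors, was at −0.64 (−0.83 to −0.44), or −0.48 without the first ΔTE well.

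Of 25 NK receptor genes, 7 reached 50 UMIs. Klrk1 and Klrd1 did so only through the ΔTE library, so their values are a description. Of the other 5 genes 2 were higher, both with separate wells, beside 3.1% higher over all genes that passed through neither library alone. Klrk1, which encodes the activating receptor NKG2D, had 8 UMIs in WT cells and 53 in ΔTE cells, a ratio of 3.40 (2.32 to 4.68). Klrd1, which encodes CD94, had 11 and 51 UMIs (2.88). Cd160 and Cd244a, both receptors of NK cells, had ratios of 1.08 and 1.14. Klra1, Klra3, Klra4, Klra6, Klra8 and Klra9, genes of the Ly49 family, had no UMI in either library.

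Of 21 cytotoxic and effector genes, 8 reached 50 UMIs, Xcl1 only through the ΔTE library. Of the other 7, 5 were higher, all with separate wells, beside 3.1% higher over all genes that passed through neither library alone. Gzma, which encodes granzyme A, was the most abundant, at 644, 562 and 592 CPM in WT wells and at 1302, 965 and 885 CPM in ΔTE wells. The groups of wells did not overlap, and the ratio was 0.84 (0.74 to 0.93). Gzmb, which encodes granzyme B, had a ratio of 1.16 (0.99 to 1.32), from 187 to 418 CPM. Xcl1, a chemokine of NK cells, had 8 and 47 UMIs (3.22, or 5.25 without the third WT well). Srgn and Nkg7, granule genes and the next most abundant on the list, had ratios of −0.05 (−0.18 to 0.07) and −0.17 (−0.32 to −0.02). Ifng, which encodes interferon gamma, had 0 and 1 UMIs. Of 16 ILC2 genes, 4 could be compared and 1, Il9r, was higher (0.71, −0.01 to 1.44, or 0.30 without the third WT well) with overlapping wells. The share over all genes compared was 3.9% higher, and so short a list is not read as a result. Il9 and Areg had no UMI in either library and Il5 had 0 and 1.

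Among 14 costimulatory and TNF-family genes, 6 were higher, all with separate wells, and 1 was lower. Leaving out those that reached 50 UMIs only through the ΔTE library, 4 of 11 were higher and 1 was lower. The shares over all genes that passed through neither library alone were 3.1% higher and 3.73% lower. Tnfrsf9, which encodes the costimulatory receptor 4-1BB, was at 21.2, 26.7 and 19.4 CPM in WT wells and at 121, 134 and 113 CPM in ΔTE wells (2.48, 2.06 to 2.92). Icos, a costimulatory receptor also used by ILC2s, had a ratio of 1.48 (1.14 to 1.82). Cxcr5, a receptor for the follicular chemokine CXCL13, reached 50 UMIs only through the ΔTE library and had a ratio of 2.89 (2.25 to 3.59), and Ccr9 and Ccr2, chemokine receptors of thymic progenitors and inflammatory homing, had 1.10 and 1.61. Ccr7, a receptor for homing to lymph nodes, was lower with separate wells, at −0.61 (−1.21 to −0.05), but fell under 1.5-fold, at −0.49 without the third ΔTE well and at −0.52 without the first WT well. Leaving out Cxcr5, 3 of the other 13 homing and chemokine receptor genes compared were higher and 1 was lower. The shares to set beside this count are the same 3.1% and 3.73%. Cd7 and Ly6d, surface molecules of early lymphoid cells, had 1.95 and 1.98. Cd163l1, a scavenger-receptor family gene on the gamma-delta T list, had 1.55, while 5830411N06Rik, the most abundant gene of that list, had −0.29 (−0.48 to −0.10). Of 6 genes of the list compared, 3 were higher, 2 of them with separate wells, and none was lower. Over all genes compared, 3.9% were higher, 2.91% with separate wells, and 5.44% were lower.

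**Figure D3:**
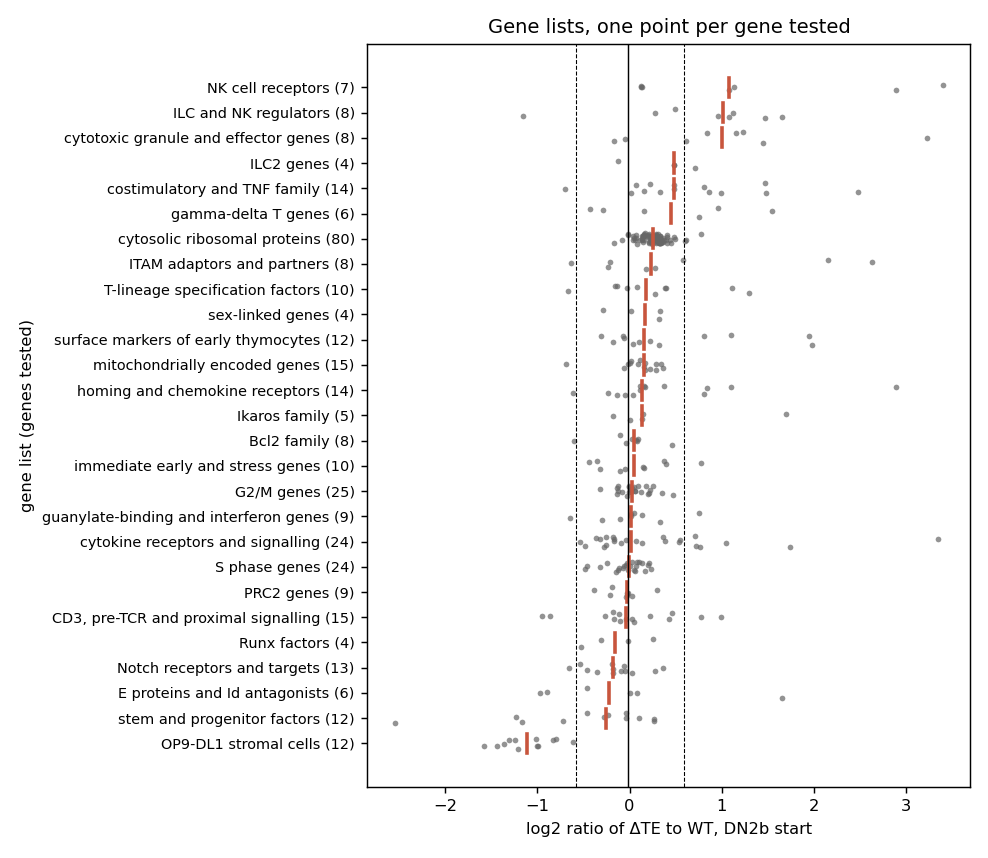
Log2 ratio of ΔTE to WT for the genes compared of each list with at least 4 such genes, 1 point per gene (vertical jitter is arbitrary). Thick bars are list medians, the solid line is the median of all genes compared (−0.02) and dashed lines mark 1.5-fold. The points include genes compared only through the library where they were higher, among them Klrk1, Klrd1, Xcl1, Il2rb and Cxcr5 (ΔTE) and Cd34, Mef2c, Csf1, Col5a1 and Col5a2 (WT), so no order of the lists is read from the medians.

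T-lineage genes did not move as a block. Of 15 CD3, pre-TCR and proximal signalling genes compared, 2 were higher (Cd28 at 1.00 and Themis at 0.78), 2 were lower (Cd5 at −0.95 and Cd3e at −0.86), and the median was −0.04. The shares over all genes compared, for this list and the T-lineage factors below, were 3.9% higher and 5.44% lower. With at most 20% mitochondrial UMIs Cd5 had a ratio of 0.039 and Themis 0.50, and Themis had 0.55 without the third ΔTE well. Cd28 had 0.54 (0.09 to 0.98) outside the cells with ILC, NK or stromal markers. Cd3g, a chain of the CD3 complex, had a ratio of −0.27 (−0.40 to −0.14) and Cd247, the zeta chain, 0.46 (0.30 to 0.61). Of 10 T-lineage factors, Tox2 (1.30) and Lef1 (1.11) were higher and Bcl11b was lower, while Tcf7, which encodes TCF-1, had −0.13 (−0.26 to −0.01) and Gata3 0.39 (0.22 to 0.56). Runx1, a partner of Bcl11b in committing cells, was below the threshold of 1.5-fold, at 1593, 1577 and 1534 CPM in WT wells and at 919, 1139 and 1221 CPM in ΔTE wells. Its wells did not overlap and its ratio was −0.52 (−0.60 to −0.44). Runx3 had 0.26 (0.11 to 0.40). Cd3e was named after its value was seen.

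Of 12 stem and progenitor factors compared, Spi1, Mef2c and Cd34 reached 50 UMIs only through the WT library, so their values are a description. Of the other 9 genes none was higher and 1 was lower, Meis1. The shares over all genes that passed through neither library alone were 3.1% higher and 3.73% lower. A list of this size holds few calls at those shares, so the count is not read as a result about it. Cd34, a surface protein of stem and progenitor cells, was at 84.7, 48.6 and 58.9 CPM in WT wells and at 17.7, 3.78 and 8.85 CPM in ΔTE wells. The wells were apart, and the ratio was −2.54 (−3.33 to −1.84), or −3.26 without the first ΔTE well. Meis1, a homeobox factor of stem cells, had a ratio of −1.17 and Mef2c, a factor of lymphoid progenitors, −1.23, or −2.04 without the first ΔTE well. Kit, which encodes CD117, had 0.10 (−0.10 to 0.30). Of 13 Notch receptors and targets, none was higher and 1 was lower, near the 3.9% higher and 5.44% lower over all genes compared. Notch1 had −0.19 (−0.35 to −0.02).

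Mid1, an X-linked ubiquitin ligase gene of the microtubule, had the lowest ratio of the genes named apart from Il31ra, at 780, 784 and 197 CPM in WT wells and at 45.1, 54.8 and 67.3 CPM in ΔTE wells. The lowest WT well was above the highest ΔTE well, and the ratio was −3.16 (−3.48 to −2.86), or −3.82 without the third WT well. The same comparison gave −3.46 in the DN1 start and −2.60 in the DN2a start, where the libraries are different cultures. The paper describes progenitors pooled over mice by genotype, so the starts may share animals. In the DN1 start the WT wells were at 687, 1925 and 327 CPM, so that ratio depends on the second well. Olfm5, an olfactomedin gene, had −1.82 (−2.24 to −1.43) in the DN2b start and −1.94 in the DN2a start.

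None of 24 S-phase genes, 25 G2/M genes or 9 PRC2 genes reached 1.5-fold, around medians of −0.01, 0.03 and −0.03. At the shares over all genes compared, 3.9% higher and 5.44% lower, lists of this size hold few calls, so these counts are not read as a result about the lists. Of 80 cytosolic ribosomal protein genes, 76 had a ratio above 0 with a median of 0.26. Over all 8546 genes compared, 4083 had a ratio above 0 and the median was −0.02. Of the 80 genes 3 were called higher, and Rpl10 was compared only through the ΔTE library. Without Rpl10, 2 of 79 were higher, near the 3.1% over all genes that passed through neither library alone. The calls are therefore not read as a result about the list. Summed ribosomal protein levels were 19507, 20245 and 20604 CPM in WT wells and 28727, 22827 and 21068 CPM in ΔTE wells. The first ΔTE well was the highest.

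Markers of other cells were checked in both libraries. Of 16 OP9-DL1 stromal genes, 12 were compared, and Csf1, Col5a1 and Col5a2 only through the WT library. The other 9 were all lower in ΔTE cells, with overlapping wells in each case. Over all genes that passed through neither library alone, 3.73% were lower. The summed level of the 16 genes was 393, 829 and 1253 CPM in WT wells and 779, 196 and 279.7 CPM in ΔTE wells, and Col1a2 was the most abundant. The stromal share therefore varied between wells of 1 library by a larger factor than between genotypes. Cells with at least 2 UMIs of 8 stromal genes made up 3.30% of WT cells and 1.59% of ΔTE cells, and such cells held 93.8% of the WT UMIs of Rspo2, 87.9% of those of Gpc6, 87.1% of those of Col4a1 and 82.2% of those of Dclk1, all of which were among the 12 lowest ratios. Without them the ratio of Rspo2 was 0.63. Outside these cells and the cells with ILC and NK markers described below, it was 0.70 (−0.80 to 2.21) on 9 WT and 9 ΔTE UMIs. The other genes stayed lower there. There Dclk1 had −1.88 (−4.29 to −0.10) on 18 WT and 3 ΔTE UMIs, Gpc6 −0.88 (−2.69 to 0.65) and Col4a1 −0.30 (−1.99 to 1.23). Of 21 myeloid genes, 1 could be compared, Ctss was the most abundant, the summed level was 57.5 CPM in WT cells and 50.1 CPM in ΔTE cells, and Elane, S100a8, S100a9, Ngp and Camp had no UMI. Csf1r had 1 UMI in WT cells and none in ΔTE cells. A list of 18 mast, basophil and megakaryocyte genes summed to 477 CPM in WT cells and 548 CPM in ΔTE cells. Its most abundant gene was Cpa3, with a ratio of 0.13. Itga2b, the other gene of that list compared, had 2.12 and was compared only through the ΔTE library. Which cells carried these transcripts was not tested. Fewer cells of a type and less RNA per cell cannot be told apart in summed counts.

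Cells with at least 2 UMIs of 12 ILC and NK marker genes made up 1.43% (1.12% to 1.80%) of WT cells, or 71 cells, and 5.12% (4.40% to 5.91%) of ΔTE cells, or 174 cells. The wells gave 1.34%, 1.74% and 1.27% in WT and 4.36%, 5.53% and 5.61% in ΔTE. Thinned to 300 UMIs per cell, the shares were 0.544% and 2.42%. Among cells with stromal transcripts the same markers were met in 0 of 164 WT cells, which allows a share of up to 1.83% by the limit of 3 counts and 2.22% by the exact interval, and in 3 of 54 ΔTE cells, or 5.56% (1.16% to 15.4%), so the ΔTE share over all cells was no higher than in stromal cells and is not read as a share of cells expressing these genes. Median depth was 669 and 521 UMIs in the stromal cells and 451 and 424 in the other cells. The 12 genes include Il2rb, Icos and Klrk1, so the share restates part of the ratios above. These cells are a range of marker counts and not a cell type. Outside this range and the stromal range, Fcer1g had a ratio of 2.01 (1.69 to 2.34), Tyrobp 2.54, Id2 1.57, Zbtb16 0.95 (0.78 to 1.12), Gzma 0.84 and Bcl11b −0.65 (−0.76 to −0.54). Of the 249 higher genes, 249 kept their direction there and 226 kept at least 1.5-fold, and of the 250 lower genes 248 and 211 did. The remaining cells held 2558004 of the 2730359 WT UMIs and 1569620 of the 1715982 ΔTE UMIs that gave the calls. Most calls therefore had to stay, and these counts are not read as a check of them. In barcodes above 30% mitochondrial UMIs, 190 of the 249 kept their direction and 100 kept 1.5-fold, and 218 and 73 of the 250 did. Genes called above that were under 1.5-fold in these barcodes include Bcl11b (−0.47), Ccr7, Maf (0.09, −0.12 to 0.31), Lef1 (0.54), Il2rg (0.36), Meis1, Vav3 (−0.04), Dclk1, Col4a1 and Col1a2. There Id2 had a ratio of 0.95 (0.62 to 1.30), Gzma 1.21, Tyrobp 2.38, Runx1 −0.29 and Mid1 −2.24 (−2.43 to −2.06).

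The same genes were set beside the DN1 and DN2a starts, which are separate WT and ΔTE libraries of 21219 and 31083 cells. Bcl11b had ratios of −1.39 in the DN1 start, −1.06 in the DN2a start and −0.67 in the DN2b start. Cd3g had −1.61, −1.20 and −0.27. Tyrobp had 0.40, 0.62 and 2.62, Fcer1g 0.78, 1.24 and 2.15, and Cd7 0.09, 0.57 and 1.95. Lef1 (1.01, 1.08 and 1.11) and Ly6d (2.02, 1.98 and 1.98) had similar ratios in all 3. With 1 library per genotype and start, the differences between starts have no test.

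**Figure D4:**
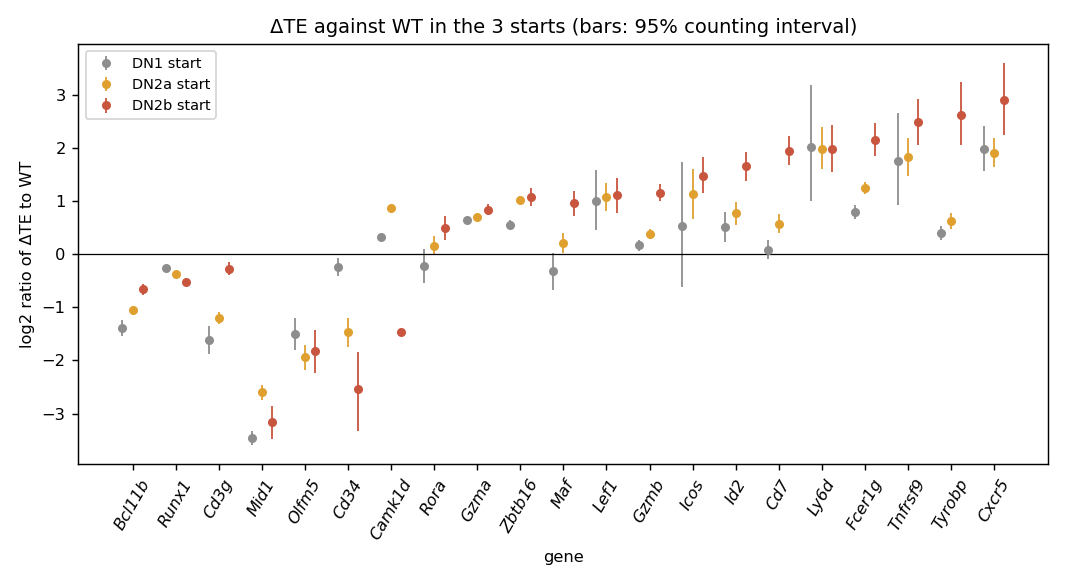
Log2 ratio of ΔTE to WT for 21 genes in the DN1, DN2a and DN2b starts, with 95% counting intervals as bars. The Bcl11b ratio is −1.39, −1.06 and −0.67 across the starts, and the Tyrobp ratio 0.40, 0.62 and 2.62.

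Some genes differed between wells of 1 library more than between genotypes. Camk1d, which encodes a calcium/calmodulin-dependent kinase, was at 1041, 1132 and 6831 CPM in WT wells and at 1529, 965 and 1701 CPM in ΔTE wells. Among these 6 wells only the third WT well was high, where 88.4% of cells had a UMI against 38.1% in the other WT wells, and the ratio of −1.47 became 0.37 without it. Il31ra, a cytokine receptor chain, was at 35.3, 29.2 and 283 CPM in WT wells, and its ratio of −3.20 became −0.91 without that well. In the ΔTE library Zfp318 was at 372 CPM in the second well and at 8.05 CPM in the next highest.

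**Figure D5:**
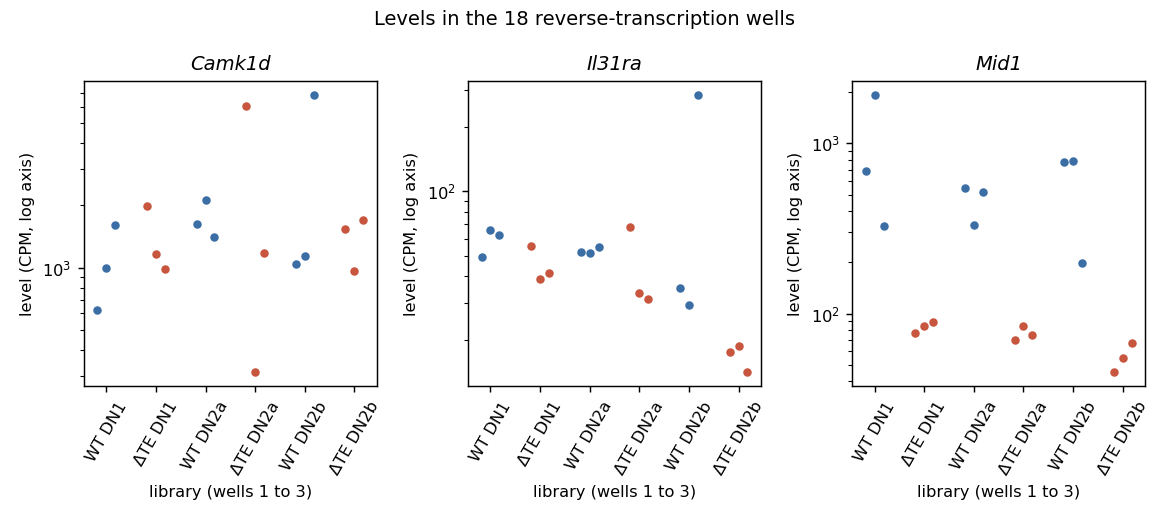
Level of Camk1d, Il31ra and Mid1 (CPM, log axis) in each of the 18 wells of the 6 libraries, WT in blue and ΔTE in red. Camk1d is high in the third WT DN2b well (6831 CPM) and the first ΔTE DN2a well (6007 CPM), whereas Mid1 is lower in all 9 ΔTE wells than in any WT well.

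Gene length moved with the ratio. Over 4 equal bins of genes from shortest to longest, with median lengths of 6675, 18896, 40000 and 105847 bases, the median log2 ratio was 0.12, 0.02, −0.04 and −0.12. The share called lower was 3.65% in the shortest bin and 9.60% in the longest. The part of length in the named ratios was not tested.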

How the data were processed

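Sci-RNA-seq3 libraries were deposited as raw UMI counts per gene and barcode; the submitters' processing notes name mm9 as the build, and the aligner is not given in the sources used here. The authors' counts were used without rescaling. Cells were defined by 3 limits on barcodes (200 genes or more, no more than 2000 UMIs, mitochondrial share up to 30%); no doublet caller was run. UMIs were summed per library and per well and divided by their total (CPM); genes seen in fewer than 15 cells of the series were left out of sums and totals. Ratios carry exact conditional binomial intervals (95%), checked on simulated data. The simulation drew Poisson counts, the model that the intervals assume. It checks the computation only and holds no differences between wells. With 1 library per condition no test across genes was run. Named genes were those the study names, each list's 3 genes with the most UMIs and its members past 1.5-fold with separate wells, and the 12 highest and 12 lowest ratios with at least 100 UMIs and separate wells; Il9r, Ifng, Zfp318 and others outside this rule were named after their values were seen. The members and lists were chosen with earlier results of these data known. Gene positions are from GENCODE M21 (GRCm38) by Ensembl identifier, and promoters from RefSeq; no coordinates were converted. Python 3.11.15, scipy 1.17.1 and edgeR 4.0.16 (TMM factors only) were used. Alternatives are given in the closing section.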

Additional observations from a re-analysis of the deposited data

Results flagged for a closer look

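The Camk1d log2 ratio of ΔTE to WT was −1.47 in the DN2b start, 0.31 in the DN1 start and 0.87 in the DN2a start. The direction of the DN2b and DN2a values rested on 1 well each. Without the third WT well the DN2b ratio was 0.37, and without the first ΔTE well the DN2a ratio was −1.29. The DN1 ratio was −0.09 without the first ΔTE well, 0.07 without the first WT well and 0.80 without the third WT well. The difference between starts was not tested. Rpl37a, a ribosomal protein gene, had a ratio of 0.60 in the DN2b start and −0.15 in the DN2a start. The DN2a ratio was 0.05 without the first ΔTE well and −0.39 without the second. The DN2b ratio was 0.53, under 1.5-fold, without the first WT well or the first ΔTE well, and 0.80 without the third WT well. This difference between starts was not tested either.

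Barcodes above 30% mitochondrial UMIs took no part in the comparisons and numbered 3440 in the WT library and 4441 in the ΔTE library. In them Zbtb16 had a ratio of 1.54 (95% counting interval 1.27 to 1.82), Fcer1g 2.33 (1.83 to 2.85) and Il2rb 2.86 (1.54 to 4.55).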

How the results depend on the processing

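The number of genes at least 1.5-fold higher was 333 and lower 465. Requiring 100 UMIs gave 184 and 234, and requiring 20 gave 561 and 889. Leaving out each well in turn gave 303 to 392 higher and 303 to 571 lower genes, with 303 lower without the third WT well, and a Bcl11b ratio of −0.74 to −0.59. Bcl11b had −0.78 with at most 20% mitochondrial UMIs and −0.47 in barcodes above 30%, the latter chosen after seeing the data. Directions changed for Cd5 (0.039) and Ebf1 (0.15) at 20% mitochondrial UMIs, for Ebf1 (0.048) and Rspo2 (0.63) without stromal cells, and for Camk1d (0.37) without the third WT well (−1.86 to 0.37 over the wells left out). Among settings added after seeing the data, Irf9 had 0.058 without a mitochondrial limit and 0.32 in barcodes above it. Without either range of marker cells, Ebf1 had 0.25 (−1.27 to 1.69) on 11 WT and 8 ΔTE UMIs. Rspo2 had 0.70 (−0.80 to 2.21) there, on 9 and 9 UMIs. Both intervals include 0, so no reversal is read from these 2 values. The causes of the changed directions were not tested. Of 74 named genes past 1.5-fold, 24 fell under it in at least 1 of 18 planned settings. The number of higher genes was 223 without a mitochondrial limit. Leaving out genes that reached 50 UMIs only through the library where they were higher, a setting added after seeing the data, gave 252 higher and 303 lower. TMM scaling moved the median ratio to 0.01. No paired analysis was possible because the comparison within the DN2b start has 1 library a side and the labels give no replicate numbers; a fit over all 3 starts was not run. Few UMIs per cell limit the low genes: those under 50 UMIs were not compared.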
